A study of Mus musculus with 416 samples.

Results

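Single blastomeres of control mouse embryos at the 4-cell stage were split by how much of their genome had been replicated, and the late-S cells were set against the early-S cells. Late S was taken as 55% or more of a cell's measured bins at 1 (replicated), and early S as under 40%. Of 64 cells labelled as control 4-cell, 49 had a column in the deposited table; 18 of them fell in late S, 21 in early S and 10 between the limits. They belong to a series of 416 labelled cells, 299 of which had a column. The cross behind the embryos was (C57BL/6J xCBA) x DBA/2J, and every embryo used here in either set had received 20 µM of a control siRNA (siControl) as a zygote, at 17 to 18 h after hCG. Control cells of the 8-cell stage (60 cells) and of the morula stage (44 cells), of the same cross and injection, served to rank bins from early to late, and they and 51 4-cell blastomeres injected with an siRNA against Rif1 (siRif1) were split in the same way for comparison. The cells were chosen by their percent replicated, which is therefore a description: it ran from 59.8 to 98.3% in late S (median 70.8) and from 5.76 to 35.8% in early S (median 26.04). The cell just inside the late limit had 59.8% and the one just outside it 54.3%, and the cell just inside the early limit had 35.8% and the one just outside it 40.2%.

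DNA replication starts at many origins, and each region of the genome tends to be copied at its own time in S phase. In differentiated mammalian cells, open and gene-rich chromatin is copied early and gene-poor chromatin at the nuclear edge late. In the first cleavage divisions of the mouse embryo this programme is less sharply defined and is known to sharpen as development goes on.

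Nothing in the labels ties a cell to an embryo or litter, so sister blastomeres may be among these cells and each set counts as 1 sample. No tests or standard errors are therefore given. Of 49264 bins of 50 kb on the 19 autosomes, 46122 were measured well enough to be used. For each bin, the replicated share is the percent of measured cells of a set that were in the replicated state. Which deposited state means replicated was read from genes: bins on which a protein-coding gene was centred were at 1 in 75.8% of late-S and 29.96% of early-S cells on average, against 72.6% and 20.5% in other bins. Results on gene density, gene lists and promoters thus cannot by themselves show that gene-rich DNA replicates first, since this reading largely sets their direction.

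Not all early-S cells followed the order of the later stages, and the 8 of 21 that did not are described first because the early-S results rest on them. An order score was computed for each cell: the chance that a replicated bin ranks earlier in control 8-cell and morula cells than an unreplicated bin of the same cell (1 is perfect order, 0.5 no order). The 18 late-S cells scored 0.531 to 0.752 (median 0.624), and 9 of them lay under 0.6. The early-S cells scored 0.392 to 0.925 (median 0.782) and fell into 2 ranges with nothing between them. The upper range held 13 cells at 0.698 to 0.925 (median 0.897). The other 8, cells 2, 4, 5, 6, 7, 10, 48 and 52, scored 0.392 to 0.508. Cells 2, 4, 5, 6 and 7 lay at 0.399, 0.399, 0.392, 0.412 and 0.406, so their replicated bins were, on balance, those that replicate late in later embryos. Cell 1, between the limits, scored 0.475. For these 8 cells the name early S rests on their percent replicated alone, and results are also given without them where they moved the value. The 13 other cells, called ordered here, stand apart by their score, so their order, spread and likeness are given as descriptions and not as a contrast with late S. The 8 cells switched state along the genome 970 to 1448 times (median 1315), and the 13 ordered cells 326 to 1183 times (median 817), so the ranges overlapped. The 7 ordered cells from 20 to 40% replicated switched 817 to 1183 times (median 985). Neighbouring label numbers occur among the low scores. Cells 1, 2, 4, 5, 6 and 7 are all the measured cells of labels 1 to 8, and all scored under 0.5. These labels are listed apart from the later control 4-cell labels in the series. Cells 10, 48 and 52 carry later labels. Late-S cells 14 to 20 also have neighbouring numbers. Whether a label number marks an embryo or a collection time is not stated, and the part of either in the scores was not tested.

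**Figure D1:**
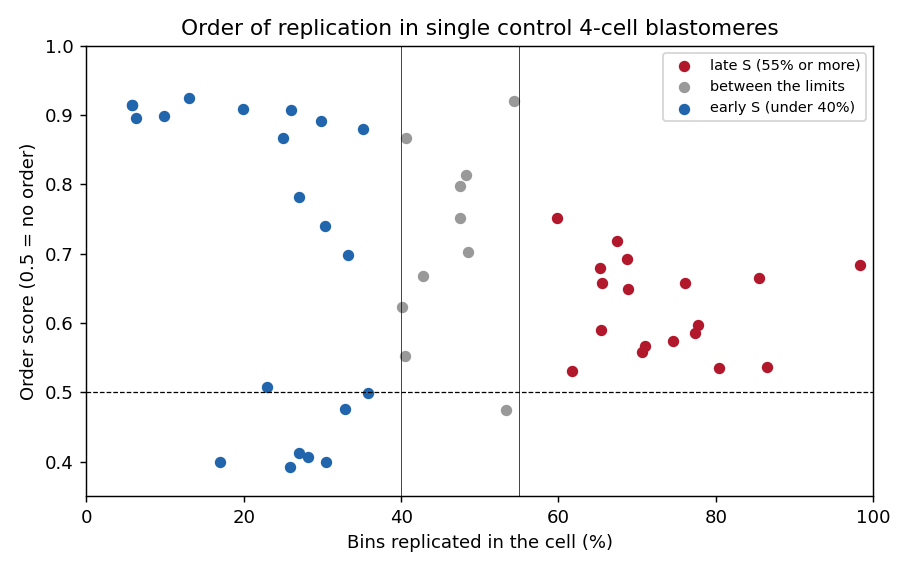
Order score of each control 4-cell blastomere (vertical axis, no unit) against the percent of its measured bins that were replicated (horizontal axis). Each point is 1 cell; late-S cells (red) lie between 0.531 and 0.752, whereas early-S cells (blue) lie either at 0.698 or above or at 0.508 or below.

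Both sets had, on average, replicated more of the DNA that is early at later stages. The bins were divided into 5 equal classes by their timing in the control 8-cell and morula cells. From the earliest to the latest class the mean replicated share was 84.4, 78.3, 74.2, 69.6 and 61.4% in late S, and 42.4, 25.9, 18.1, 15.8 and 14.3% in early S. The earliest class exceeded the latest by 23.02 points in late S and by 28.1 points in early S. Without the 8 cells the early-S shares were 54.1, 27.8, 13.2, 6.08 and 2.06%, a difference of 52.1 points. Kept by the same limit of 0.6, the 9 late-S cells at or above it had a difference of 33.9 points. In the 8 cells alone the order was turned, with 23.3% in the earliest and 34.1% in the latest class. The latest class had thus been copied in 61.4% of late-S cells on average, while the earliest class was still unreplicated in a part of them.

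Cell by cell, the earliest class exceeded the latest by 3.04 to 57.2 points in late S (median 18.6) and by -20.7 to 82.4 points in early S (median 24.7). Among the 13 ordered early-S cells the range was 23.6 to 82.4 points (median 51.2), so the 2 ranges overlapped. The earliest class was 65.9 to 99.3% replicated in late-S cells (median 85.2) and 11.7 to 85.3% in early-S cells (median 36.6). The latest class was 32.3 to 96.2% replicated in late-S cells (median 62.9) and 0 to 42.9% in early-S cells (median 2.92; 0 to 10.5%, median 0.314, without the 8 cells).

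**Figure D2:**
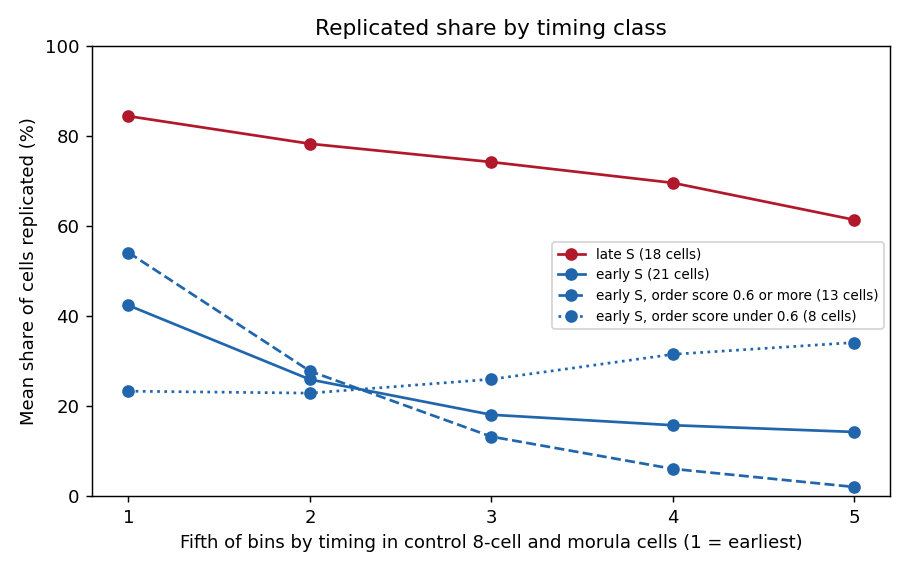
Mean replicated share (vertical axis, percent of measured cells) of 5 equal classes of bins ranked by timing in control 8-cell and morula cells (horizontal axis, 1 is the earliest). Late S (red) goes down by 23.02 points from class 1 to class 5, all early-S cells (solid blue) by 28.1 points and the 13 ordered ones (dashed) by 52.1 points, while the 8 others (dotted) go up.

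The percent replicated differs between the sets, so cells equally far from the middle of S phase were also set side by side. Order scores were 0.531 to 0.719 (median 0.598) in the 13 late-S cells from 60 to 80% and 0.392 to 0.907 (median 0.603) in the 14 early-S cells from 20 to 40%. The medians were close in these ranges, but 7 of the 14 early-S cells are among the 8 of low score. The other 7 scored 0.698 to 0.907 (median 0.867), so the early-S median lay in a gap that held no cell. These 7 stand apart by their score, so their values are a description and not a contrast with late S.

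The same split was made at the other stages, with the order of bins taken from the other control stage. Median order scores were 0.779 in late S and 0.806 in early S at the 8-cell stage (21 and 20 cells), and 0.753 and 0.781 at the morula stage (15 and 10 cells). Only 2 late-S and 2 early-S cells of the 8-cell stage scored under 0.6, and no morula cell did. Against the morula order alone, the control 4-cell medians were 0.612 in late S and 0.769 in early S. The earliest class exceeded the latest by 57.4 points in late S and 49.1 points in early S at the 8-cell stage, and by 61.2 and 56.8 points at the morula stage. In siRif1 4-cell blastomeres the median score was 0.563 in late S and 0.775 in early S, with 15 of 22 and 3 of 15 cells under 0.6. Low scores in late S were therefore seen in both 4-cell groups. Differences between stages were not tested.

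The per-bin spread was alike in the 2 sets. Over bins, the replicated share had an SD of 14.6 points in late S and 14.7 points in early S. States placed at random in each cell, at the cell's own percent replicated, would give 10.1 points in late S and 8.98 in early S. The SD beyond counting was 10.5 points in late S, 11.7 in early S and 20.7 in the 13 ordered early-S cells (total SD 23.3). Replication was complete in every measured late-S cell at 741 bins (1.61%), and no late-S cell had replicated 7 bins. In early S no bin was replicated in every cell, and 1156 bins (2.51%) were replicated in none. In the 13 ordered cells 13537 bins (29.4%) were replicated in none.

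Pairs of late-S cells shared little of their pattern beyond the amount replicated. In pairs of cells whose percent replicated differed by at most 5 points, the correlation of states over bins had a median of 0.0699 in late S (39 pairs, -0.0294 to 0.222) and 0.00773 in early S (64 pairs, -0.120 to 0.526). It was 0.349 among the 13 ordered early-S cells (20 pairs, 0.148 to 0.526) and 0.0440 among the 8 others (11 pairs, 0.0159 to 0.0660). Among the 9 late-S cells with a score of 0.6 or more it was 0.116. States of the 8 cells were thus nearly uncorrelated with each other. The profiles of late S and early S correlated over 46122 bins at r = 0.448 (rho = 0.457), and at r = 0.449 without the 8 cells. Neighbouring bins share runs of state, so bins are not independent. With the 10 cells between the limits, which neither set holds, the correlation was r = 0.534 for late S, 0.591 for early S and 0.653 for the ordered early-S cells.

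Runs of one state were of like length in late S and early S for the state in the minority. Unreplicated runs of late-S cells had a median of 1.00 Mb (quartiles 0.65 and 1.90) and replicated runs of early-S cells a median of 0.80 Mb (quartiles 0.55 and 1.35; median 0.90 without the 8 cells). Per-cell medians ran from 0.70 to 1.30 Mb in late S (median 1.00) and from 0.60 to 1.05 Mb in early S (median 0.80), so they overlapped. The longest ones differed more. Unreplicated runs of 5 Mb or more made up 22.6% of the unreplicated length in late S, whereas replicated runs of that size made up 6.51% of the replicated length in early S (7.18% without the 8 cells). The longest unreplicated run of a late-S cell was 3.10 to 34.95 Mb (median 12.7), against 3.20 to 25.4 Mb (median 7.15) for the longest replicated run of an early-S cell. Late-S cells switched state 81 to 1331 times (median 706.5) and early-S cells 326 to 1448 times (median 985). No run that lay inside a chromosome was shorter than 5 bins, so structure finer than that cannot be read from these states.

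Whole chromosomes of single late-S cells lagged in replicated share. Differences between autosomes made up 1.55 to 24.7% of the variance of states in late-S cells (median 5.49) and 0.725 to 8.74% in early-S cells (median 2.68; 2.73 without the 8 cells). The SD over autosomes within a cell was 1.58 to 23.9 points in late S (median 10.4) and 3.10 to 13.4 points in early S (median 7.69). Of 341 chromosomes of late-S cells, 8 lay 30 points or more below their own cell's mean, in 5 cells; none of 399 did so in early-S cells, where the low mean leaves little room below it. None lay 30 points or more above in either set, and the high mean of many late-S cells leaves little room above it. In the 10 cells between the limits, 5 of 190 chromosomes lay 30 points or more above their cell's mean, in 3 cells, and none lay as far below. Among these, cell 22 had replicated 48.5% of its bins but 100% of chromosomes 9 and 18. Cell 16 had replicated 70.99% of its bins and 12.3% of chromosome 13, but 98.8% of chromosome 8. Cell 27 had replicated 68.8% of its bins and 21.4% of chromosome 3, and cell 31 had replicated 61.8% and 21.7% of chromosome 10. Cell 16 also lagged on chromosome 18 and cell 27 on chromosomes 17 and 19, and the other two values were chromosome 17 of cell 50 and chromosome 18 of cell 55. Chromosomes 17 and 18 thus each lagged in 2 cells. One late-S cell, cell 63, had no value on chromosome 18. Copy number of whole chromosomes was not measured apart from replication here, and its part in these values was not tested.

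**Figure D3:**
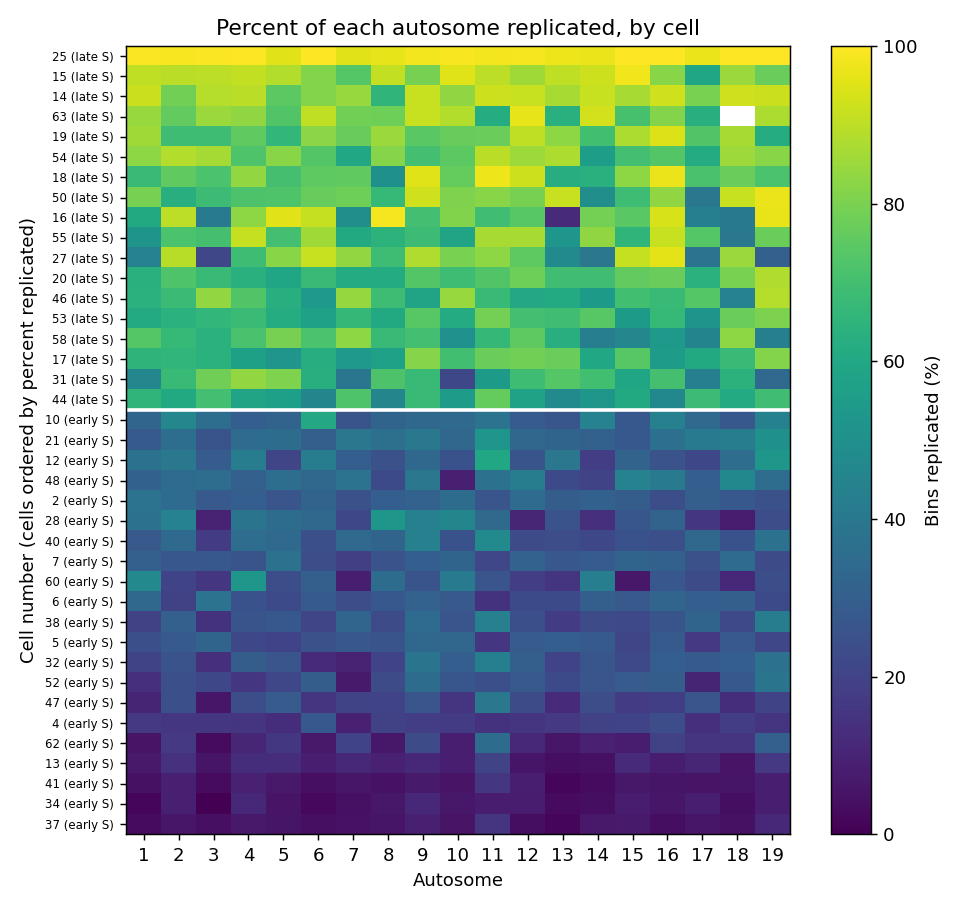
Percent of measured bins replicated (colour, 0 to 100%) on each autosome (horizontal axis) in each cell (rows, ordered by percent replicated, late S above the white line and early S below it; the white square is not measured). Dark squares among late-S rows are single lagging chromosomes, such as chromosome 13 of cell 16 at 12.3%, and chromosome 17 is lower than its neighbours in many late-S rows.

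Bins left last and bins replicated first were then picked out, and the counts that follow describe how they were chosen. A bin was called last when its share lay 20 points or more below the mean in late-S cells: 4100 bins, or 8.89% of those used. A bin was called first when its share lay 20 points or more above the mean in early-S cells: 4653 bins, or 10.1% (8169 bins, 17.7%, without the 8 cells). Only 14 bins were both, 0.341% of the last and 0.301% of the first bins. The last bins lay in 389 stretches of up to 3.70 Mb (median 0.35) and the first bins in 409 stretches of up to 4.25 Mb (median 0.35).

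Cells that had no part in that choice placed the bins in the same direction. In the 10 cells between the limits, whose mean was 46.5%, the last bins had a mean share of 21.05% and the first bins a share of 75.3%. In early-S cells, with a mean of 23.3%, the last bins had 12.4% (4.29% without the 8 cells, mean 20.7%). In late-S cells, with a mean of 73.6%, the first bins had 85.2%. Of the last bins 58.5% lay in the latest class of the later stages, and of the first bins 85.9% in the earliest class, where 20.0% of all used bins lie in each.

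Gene density separated the first bins more than the last. The replicated state was itself read from gene-bearing bins, so the direction of these values is not a separate result. The first bins had 20.3 protein-coding genes within 500 kb on average, the last bins 9.25 and all used bins 8.80. With bins in 5 equal classes of gene density, from the poorest to the densest, the replicated share was 66.8, 72.04, 76.2, 77.8 and 75.1% in late S, and 16, 17.3, 21.1, 27.5 and 34.6% in early S. Without the 8 cells the early-S shares were 4.13, 8.28, 17.3, 29.7 and 43.96%. The share of bins left last was 15.1, 8.63, 4.80, 5.49 and 10.4%. Bins were thus left last more often in the gene-poorest and, to a smaller degree, the gene-densest class than between them.

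Promoters of genes in the extreme windows are shown because CpG content, a feature that the choice did not use, varied as much within each kind as between them in these examples. The windows of 1 Mb with the lowest late-S shares gave Esp38 and Mettl4, and those with the highest early-S shares gave Bsn and Tbxas1; each is the longest gene of its window. The sequences are from RefSeq (GRCm38.p6), 250 bases before to 50 after the gene's start, on the gene's strand. Capitals mark each CG dinucleotide.
Esp38 (left last), chr17:39950270-39950569, + strand: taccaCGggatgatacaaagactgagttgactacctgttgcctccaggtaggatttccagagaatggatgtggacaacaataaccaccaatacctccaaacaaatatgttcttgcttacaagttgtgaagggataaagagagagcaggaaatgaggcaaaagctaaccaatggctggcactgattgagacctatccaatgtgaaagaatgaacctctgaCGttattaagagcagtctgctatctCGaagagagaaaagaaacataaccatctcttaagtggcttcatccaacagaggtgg
Mettl4 (left last), chr17:94749970-94750269, - strand: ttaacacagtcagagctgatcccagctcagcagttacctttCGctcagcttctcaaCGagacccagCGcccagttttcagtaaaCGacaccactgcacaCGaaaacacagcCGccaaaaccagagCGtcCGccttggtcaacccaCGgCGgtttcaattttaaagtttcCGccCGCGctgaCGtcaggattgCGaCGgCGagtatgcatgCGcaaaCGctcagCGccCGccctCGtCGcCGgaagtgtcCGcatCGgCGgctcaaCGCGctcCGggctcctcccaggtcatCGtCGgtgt
Bsn (replicated first), chr9:108190334-108190633, - strand: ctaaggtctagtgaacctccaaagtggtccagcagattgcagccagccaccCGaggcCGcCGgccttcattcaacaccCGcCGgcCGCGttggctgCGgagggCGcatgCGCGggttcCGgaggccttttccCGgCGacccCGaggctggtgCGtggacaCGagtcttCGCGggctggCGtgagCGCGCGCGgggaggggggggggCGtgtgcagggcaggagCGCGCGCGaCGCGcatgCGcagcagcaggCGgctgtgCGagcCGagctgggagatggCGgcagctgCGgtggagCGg
Tbxas1 (replicated first), chr6:38918736-38919035, + strand: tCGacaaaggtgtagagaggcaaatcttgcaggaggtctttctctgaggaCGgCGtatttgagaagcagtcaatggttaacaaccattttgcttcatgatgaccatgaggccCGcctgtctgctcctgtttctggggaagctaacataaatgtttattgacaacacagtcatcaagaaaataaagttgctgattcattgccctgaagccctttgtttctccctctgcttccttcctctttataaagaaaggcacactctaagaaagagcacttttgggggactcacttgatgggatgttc

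These 4 promoters held 3, 32, 38 and 4 CG dinucleotides in the order printed, so each kind had a rich and a poor one. Over all genes the difference was plainer. Of 1784 genes in last bins, 1481 had a promoter in the table, and 22.8% of these held 10 or more CG dinucleotides. The same was so of 74.1% of the 3834 promoters of genes in first bins, and of 61.4% of all 15519 promoters. Without olfactory and vomeronasal receptor genes the value for last bins was 39.03%. The median GC content was 43.3% in last, 59.7% in first and 57.3% in all promoters.

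The 6 windows with the lowest late-S shares held 2 to 48 protein-coding genes each. Chromosome 17 from 39 to 40 Mb, with the exocrine peptide pheromone genes Esp38, Esp15 and Esp16, had a mean share of 17.2% in late S and 0.952% in early S. More than 50% of its used bins were replicated in 3 of 18 late-S cells (16.7%, exact 95% interval 3.58 to 41.4%) and in 0 of 21 early-S cells (upper limit of the interval 16.1%). Intervals for these and the following windows are by Clopper-Pearson and reflect only the counting of cells. They treat cells as independent, which sister blastomeres may not be. The windows were also picked as extremes of the same shares, so the intervals do not give the uncertainty of a window. Chromosome 17 from 94 to 95 Mb, with Mettl4, which encodes an adenine methyltransferase, also had 17.2% in late S, and 8.33% in early S (0% without the 8 cells). Chromosome 5 from 109 to 110 Mb, with the vomeronasal receptor genes Vmn2r13 and Vmn2r16, had 18.3% in late S and 5.44% in early S. Chromosome 1 from 195 to 196 Mb, with Cd46, Cr2 and Cr1l, genes of complement receptors and regulators, had 20.6% in late S and 9.05% in early S. Chromosome 3 from 159 to 160 Mb, with the Wnt secretion gene Wls and Rpe65 of the visual cycle, had 20.6% in late S and 17.6% in early S (4.62% without the 8 cells). Chromosome 7 from 104 to 105 Mb, with Trim30a, Trim30d and Trim5 among 48 genes, had 21.1% in late S and 0% in early S. All 6 windows lay between 4.29 and 18.5% in the cells between the limits. The windows on chromosome 1, on chromosome 3 and on chromosome 17 from 94 to 95 Mb lie at the distal ends of their chromosomes. Distal ends were less replicated in late S on all autosomes, as given below, so these windows are not separate from that result.

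The 6 windows with the highest early-S shares held 11 to 39 protein-coding genes each. Chromosome 9 from 108 to 109 Mb, holding Bsn, whose product organises presynaptic sites, Dag1, which encodes dystroglycan, and the anion exchanger gene Slc26a6, had a mean share of 79.7% in late S and 70% in early S (93.8% without the 8 cells). More than 50% of its bins were replicated in 15 of 18 late-S cells (83.3%, interval 58.6 to 96.4%) and in 16 of 21 early-S cells (76.2%, interval 52.8 to 91.8%). Over all bins the late-S mean was 73.6%, so this window led in early S more than in late S. Chromosome 6 from 38 to 39 Mb, with the thromboxane synthase gene Tbxas1 and the kinase gene Hipk2, had 91.9% in late S and 68.8% in early S. Chromosome 16 from 4 to 5 Mb, with the adenylate cyclase gene Adcy9 and the acetyltransferase gene Crebbp, had 87.5% in late S and 68.8% in early S. Chromosome 11 from 86 to 87 Mb, with the DNA repair helicase gene Brip1, the autophagy gene Vmp1 and Med13 of the Mediator complex, had 100% in late S and 68.6% in early S. Chromosome 4 from 126 to 127 Mb, with Zmym4 and the Argonaute gene Ago3, had 97.8% in late S and 68.3% in early S. Chromosome 6 from 71 to 72 Mb, with Reep1 and the RNA polymerase I subunit gene Polr1a, had 93.1% in late S and 68.1% in early S. In the cells between the limits these 6 windows lay between 66.5 and 89.5%.

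Some windows changed rank between late S and early S. They were picked for that difference out of 2324 windows, and ranks are percentiles of mean share. Chromosome 7 from 36 to 37 Mb, with the zinc finger homeobox gene Tshz3, stood at 93.6% in late S (rank 96.9) and 5.95% in early S (rank 3.01). Chromosome 3 from 63 to 64 Mb, with the GMP synthase gene Gmps and the neprilysin gene Mme, stood at 87.8% in late S and 4.76% in early S. Chromosome 5 from 38 to 39 Mb, with the urate transporter gene Slc2a9, stood at 91.9% in late S and 9.05% in early S. Chromosome 16 from 29 to 30 Mb, with Opa1 of mitochondrial fusion, stood at 88.1% in late S and 7.14% in early S. These 4 windows were rarely replicated in early-S cells and nearly complete in late-S cells, and they lay at 29 to 50% in the cells between the limits.

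Other windows ranked lower in late S than in early S, and 3 are given here. Chromosome 10 from 128 to 129 Mb, with Sarnp, Rbms2 and Ikzf4 among 50 genes, had 59.4% in late S (rank 13.98) and 56.4% in early S (rank 97.8). Chromosome 10 from 80 to 81 Mb, with the histone methyltransferase gene Dot1l among 54 genes, had 60.6% in late S and 47.9% in early S. Chromosome 14 from 75 to 76 Mb, with Gtf2f2, Lcp1 and Siah3, had 52.8% in late S and 41.4% in early S.

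Distal chromosome ends were less replicated than the rest in late S and in the cells between the limits. The last 3 Mb of used bins had a mean share of 56.5% in late S, against 73.6% over all bins, and lay below their own chromosome's mean on 19 of 19 autosomes. In early S the same 1140 bins had 21.8%, against 23.3% over all bins, and lay above their own chromosome's mean on 8 autosomes. The share in late S was 47.9% within 1 Mb of the end, 58.6% from 1 to 2 Mb, 62.99% from 2 to 3 Mb and 72.1% from 5 to 10 Mb. The share in early S was 23.1% within 1 Mb of the end and 20.1% from 5 to 10 Mb. In the 10 cells between the limits it was 32.2% within 1 Mb of the end and 45.6% from 5 to 10 Mb. The ends were not gene-poor, with 13.1 genes within 500 kb in the last 1 Mb against 8.80 over all used bins. In 17 of 18 late-S cells and 12 of 21 early-S cells the ends were less replicated than the cell as a whole. The ends held 2.47% of the used bins and 9.88% of the bins left last. At the 8-cell stage late-S cells had 58.2% there against 69% over all bins, and late-S cells of the morula stage had 62.3% against 64.5%. In siRif1 4-cell blastomeres in late S the ends had 54.04% against 67.3%. How states were called at the edge of a chromosome is unknown here, and its part was not tested. At the proximal ends, the share in the first 3 Mb was 69.9% in late S and 24.9% in early S.

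**Figure D4:**
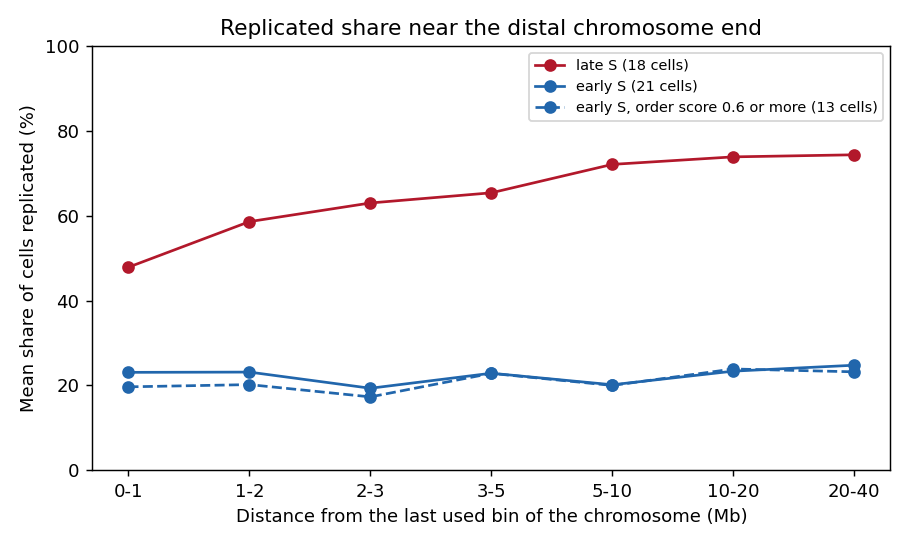
Mean replicated share (vertical axis, percent of measured cells) against distance from the last used bin of each autosome (horizontal axis, Mb). In late S (red) the share is 47.9% in the last 1 Mb and 74.3% at 20 to 40 Mb, while both early-S lines (blue; dashed without the 8 cells of low order score) stay between 17.3 and 24.8%.

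Chromosome 17 was the least replicated autosome of late-S cells. The difference of its mean share from that of all bins was -12.2 points in late S and -1.52 points in early S. It was under the cell's own mean in 15 of 18 late-S cells and 11 of 21 early-S cells, and 26.9% of its bins were left last. From 30 to 40 Mb, which holds the MHC, the share was 57.6% in late S and 23.9% in early S (30.2% without the 8 cells). From 90 Mb to the distal end, with 4 genes, it was 39.8% in late S and 20.8% in early S (1.00% without the 8 cells). This last stretch is shorter, with 100 used bins against 200 from 80 to 90 Mb, and includes the distal end described above. In late S all stretches of up to 10 Mb of chromosome 17 lay below the mean of 73.6%, from 39.8 to 71.6%. Chromosome 11 lay above the mean in both sets, by 5.48 points in late S and 6.93 points in early S (13.4 without the 8 cells), and 26.2% of its bins were replicated first. For chromosome 12 that difference was 6.72 points in late S and -1.44 points in early S.

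Many genes of receptor and immune clusters lay in bins left last. Over all 19461 protein-coding genes in used bins, 9.17% lay in last bins and 24.6% in first bins (41.6% without the 8 cells). Of 1020 measured olfactory receptor genes, which encode odorant receptors in clusters, 603 lay in last bins (59.1%) and 14 in first bins (36 without the 8 cells). The difference of their median share from the mean of all bins was -23.6 points in late S and -13.8 points in early S. It was 4.2 and 5.28 points for all genes, and is given likewise for the other lists. The median used bin is not at that mean: it had 77.8% in late S (mean 73.6) and 19.05% in early S (mean 23.3). Olfr651 was replicated in 1 of 18 late-S cells and 0 of 21 early-S cells, whereas Olfr15 was replicated in 15 of 18 late-S and 12 of 21 early-S cells. Of 35 measured genes of the major histocompatibility complex (MHC), which present antigens, 17 lay in last bins and 3 in first bins (12 without the 8 cells). The MHC median was -18.02 points in late S and 0.516 points in early S (17.8 without the 8 cells). H2-M10.3 was replicated in 2 of 18 late-S and 1 of 21 early-S cells, and H2-Q10 in 15 of 18 late-S and 10 of 21 early-S cells. All 35 lie in 28 bins of chromosome 17, so they are few separate measurements.

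Of 57 clustered protocadherin genes, which encode neuronal adhesion proteins, 20 lay in last bins and none in first bins, but all lie in 11 bins. Their median was -14.8 points in late S and -4.25 points in early S. Of 49 keratin genes, which encode intermediate filaments of epithelia, 8 lay in last bins and 4 in first bins. Krt82 was replicated in 8 of 18 late-S and 1 of 21 early-S cells, and Krt17 in 14 of 18 late-S and 11 of 21 early-S cells. Zinc finger genes were split, with 61 of 325 in last bins (18.8%) and 62 in first bins (19.1%). Without the 8 cells, 106 lay in first bins (32.6%), against 41.6% of all genes. Zfp758 was replicated in 2 of 18 late-S and 0 of 21 early-S cells, and Zfp287 in 15 of 18 late-S and 15 of 21 early-S cells.

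Larger shares of the genes that every cell uses lay in first bins than of all genes. Of 80 ribosomal protein genes, 3 lay in last bins and 30 in first bins (37.5%; 54, or 67.5%, without the 8 cells). Their median was 4.2 points in late S, equal to that of all genes, and 14.8 points in early S. Rps3 was replicated in 8 of 18 late-S and 3 of 21 early-S cells, and Rpl41 in 11 of 18 late-S and 13 of 21 early-S cells (12 of 13 without the 8). Of 26 glycolysis and housekeeping genes, none lay in last bins and 11 in first bins (42.3%; 19 without the 8 cells). The ubiquitin gene Ubb was replicated in 15 of 18 late-S and 14 of 21 early-S cells. Of 41 genes of origin licensing and the replication fork, 2 lay in last bins and 11 in first bins (26.8%, close to the 24.6% of all genes). Without the 8 cells, 19 lay in first bins (46.3%), against 41.6% of all genes. Orc1, a subunit of the origin recognition complex, was replicated in 17 of 18 late-S and 15 of 21 early-S cells, and in all 13 of the ordered ones. Rfc3, a subunit of the clamp loader, was replicated in 1 of 18 late-S and 1 of 21 early-S cells, and lies near the distal end of chromosome 5.

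Developmental genes can be read against the 9.17% of all genes in last bins and the 24.6% in first bins (41.6% without the 8 cells). Of 25 pluripotency genes, 1 lay in last bins (4%) and 5 in first bins (20%; 9, or 36%, without the 8 cells). Their median was 9.76 points in late S and 10.04 points in early S. Nr5a2, a nuclear receptor gene active in early embryos, was replicated in 15 of 18 late-S and 12 of 21 early-S cells. The growth factor gene Fgf4, near the distal end of chromosome 7, was replicated in 8 of 18 late-S and 3 of 21 early-S cells. Of 20 trophectoderm genes, none lay in last bins and 2 in first bins (10%; 7, or 35%, without the 8 cells). Their median was 9.76 points in late S and 5.28 points in early S. The water channel gene Aqp3 was replicated in 18 of 18 late-S and 14 of 21 early-S cells, and the tight junction gene Cldn4 in 12 of 18 late-S and 7 of 21 early-S cells. Of 22 measured maternal-effect genes, 2 lay in last bins (9.09%) and 6 in first bins (27.3%; 9, or 40.9%, without the 8 cells). The DNA methyltransferase gene Dnmt1 was replicated in 13 of 18 late-S and 12 of 21 early-S cells, and Zfp57, a keeper of imprints, in 7 of 18 late-S and 2 of 21 early-S cells.

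Hox genes, which pattern the body axis, had a median of 15.3 points in late S and 14.8 points in early S, with none of 39 in last bins and 1 in first bins (10 without the 8 cells). They lie in 13 bins. Hoxc10 was replicated in 14 of 18 late-S and 7 of 21 early-S cells, and Hoxb13 in 15 of 18 late-S and 10 of 21 early-S cells. Of 81 histone genes, in 28 bins, none lay in last bins and 5 in first bins (18 without the 8 cells). H2ac11 was replicated in 10 of 18 late-S and 3 of 21 early-S cells, and H3f3c in 17 of 18 late-S and 11 of 21 early-S cells. Long neuronal and fragile-site genes were not left last, with 1 of 42 in last bins and 1 in first bins. Their median was 4.2 points in late S and -4.25 points in early S (-12.97 without the 8 cells). In late S and in all early-S cells that was the share of the median used bin, 77.8 and 19.05%. Without the 8 cells the median used bin had 15.4%, against a mean of 20.7%, and the list lay lower than that bin. The glutamate receptor gene Grm8 was replicated in 14 of 18 late-S and 12 of 21 early-S cells (5 of 13 without the 8). Vomeronasal receptor, serpin and 2-cell genes had under 80% of their members measured and are not interpreted.

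**Figure D5:**
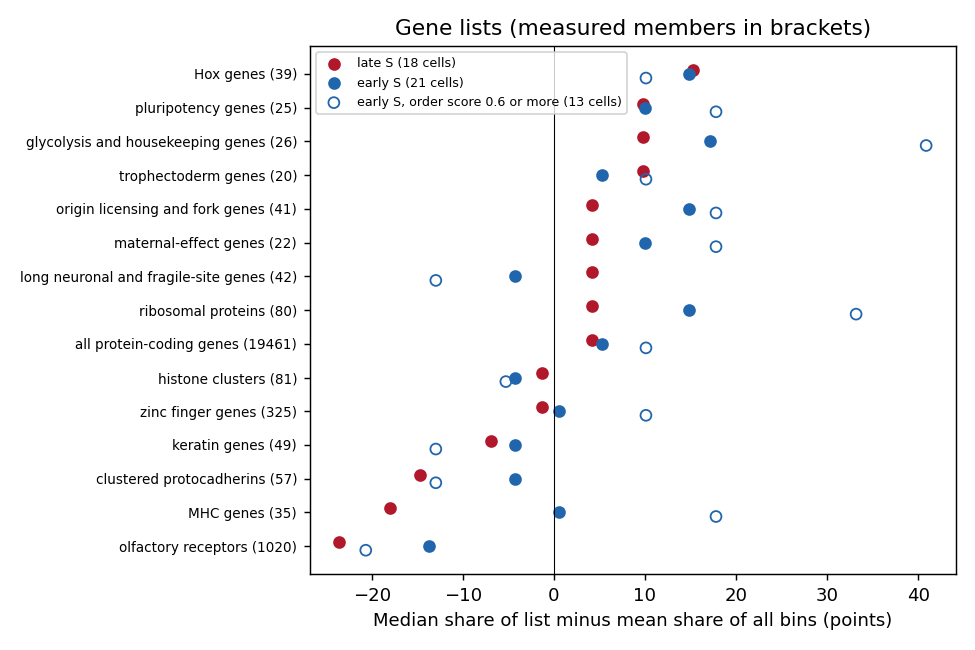
Median replicated share of each gene list minus the mean share of all used bins (horizontal axis, percentage points), with the number of measured members in brackets. Late S (red) and early S (blue; open circles without the 8 cells of low order score) lie on the same side for olfactory receptors (-23.6 and -13.8 points), while MHC genes lie at -18.02 points in late S and 0.516 points in early S.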

How the data were processed

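Replication states of single blastomeres were used as deposited. Each table held, per 50-kb bin and cell, a state of 0, 1 or NA; this other unit is a binary call made by the authors before deposit, and how reads became states is not known here, nor is read depth. Per the submitters' processing notes, the build was GRCm38 and the tools included Bowtie2 2.5.1 and R 4.2.3, besides bedtools, Picard and SAMtools. Cells came from the labels' titles, and the least different pair of control 4-cell cells differed at 6.37% of shared bins.

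A bin was used when at least 50% of the cells of each set and at least 10 control 8-cell and 10 morula cells measured it. Runs went on over unmeasured bins and left out those touching a chromosome end. Genes were placed by the bin of their midpoint (RefSeq, GRCm38.p6; 19461 of 20661 genes). Windows of 1 Mb needed 10 used bins. Named windows were the 6 with the lowest late-S and the 6 with the highest early-S share, and the 4 that differed most in rank each way, at least 3 Mb apart, each with up to 3 of its longest genes; each list gave its member with the lowest late-S and the one with the highest early-S share. Some items that this rule picked are not reported here. The members and lists were chosen with earlier results of these data known. The order score, its limit of 0.6, the analysis of chromosome ends and of chromosome 17, and the results without 8 early-S or with 9 late-S cells were added after seeing the data. Scores and runs were tested on simulated data. Python 3.11.15, numpy 2.4.6, pandas 2.3.3 and scipy 1.17.1 were used.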

Additional observations from a re-analysis of the deposited data

How the results depend on the processing

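Of 100 values recomputed under other settings, 91 stayed within 1 SD of the reported value or, for counts, within the limit set for them; for class differences that SD, over cells, is wide (15.9 points in late S and 35.7 in early S). Of the 100 values, 36 were gene counts over gene bodies, 35 of which stayed. Another 9 came from needing 80% of cells measured per bin. They equalled the reported values, so that setting changed nothing and says little about how firm they are. With the 2 sets split at 50%, the correlation of the 2 profiles was 0.580. With only cells from 10 to 90% replicated, the median pair correlation in early S was -0.0160, the reverse of its sign. With 30 points from the mean, 2.77% of bins were left last and 4.30% were replicated first. Without the 8 early-S cells of low order score, an alternative chosen after seeing the data, the early-S class difference was 52.1 points against 28.1, the SD of the early-S share was 23.3 points, 17.7% of bins were replicated first and the pair correlation was 0.349. With only the 9 late-S cells scoring 0.6 or more, also chosen after seeing the data, the SD of the late-S share was 19.1 points and the class difference 33.9. Over gene bodies, the number of long neuronal genes left last was 0. Leaving out 1 cell at a time, the SD over bins was 14.3 to 15.3 points in late S and 14.1 to 15.5 in early S, and the class difference 21.01 to 24.2 and 25.4 to 30.6 points. The correlation of profiles was 0.413 to 0.456, the late-S unreplicated run 1.00 Mb throughout and the early-S replicated run 0.80 to 0.85 Mb. Bins left last were 7.51 to 12.9%, bins replicated first 10.5 to 13.02%, and pair correlations 0.0615 to 0.0729 in late S and 0.00282 to 0.0128 in early S. No paired analysis was possible because each cell belongs to 1 set and no label ties cells across the sets. Unknown read depth and unnamed embryos limit all values.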
